A study of Mus musculus with 11 samples.

Results

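Most clade A serpins are secreted inhibitors of proteases, and 7 of their genes were examined in mouse fat: Serpina1b, Serpina3n, Serpina3c, Serpina3g, Serpina3i, Serpina3k and Serpina12. Each probe set annotated to one of these genes was taken, which gave 7 of 45037 probe sets (controls left out) and covered 4 of the 7 genes. Of these probe sets, 6 had a single gene symbol, and 1 was shared by Serpina1e, Serpina1c and Serpina1b. No probe set was named for Serpina3c, Serpina3g or Serpina3k, and these genes were not analysed here. The genes were selected on the differences of knockout and fat rescue from wild type, so those differences are given as a description. The contrast between fat rescue and knockout was tested.

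The arrays came from epididymal fat, a visceral depot, of male C57BL/6 mice aged 3 months. There were 4 arrays of wild-type animals (B1+/+) and 4 of knockout animals (B1-/-), in which Bdkrb1, the gene of the kinin B1 receptor, is disrupted. The 3 fat rescue animals (aP2B1-B1-/-) carry the same knockout and express the receptor selectively in fat, where aP2 names the promoter of Fabp4, a gene of fat cells that macrophages also use. The labels call the arrays biological replicates and say no more, so the spread measured is that between these samples. Each array was one-colour and gave 1 signal per probe set, a linear intensity with a median of 41.3 to 48.8 per array. A signal below the array median is called dim here. The number of arrays limits the precision. Wild-type array 1 stood apart from the other arrays on the first principal component (-68.1, against -28.1 to 33.9). Of the adipocyte markers, 8 of 10 were measured, and none was dim on any array. Their summed signal was 75626 to 101845 in wild type, 69930 to 93927 in knockout and 74837 to 91122 in fat rescue. By log2 difference from wild type, 0 of the 8 were higher in knockout and 1 in fat rescue (medians -0.24 and -0.12).

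A serpin presents an exposed loop as bait to its target protease. When the protease cuts the loop, the serpin changes shape and holds the enzyme in a covalent, inactive complex. Serpina1b is one of several mouse copies of the gene for alpha-1-antitrypsin, a liver-derived plasma inhibitor of neutrophil elastase. Serpina3n, Serpina3c, Serpina3g, Serpina3i and Serpina3k belong to the mouse expansion of the antichymotrypsin gene, and Serpina3n is an acute-phase product that inhibits granzyme B and cathepsin G. Serpina12 encodes vaspin, an adipokine described in visceral fat that inhibits the kallikrein Klk7.

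The genes lie in one cluster on chromosome 12, the chromosome of Bdkrb1. In the gene order of the mouse assembly GRCm38.p6, 34 genes run from Serpina1b to Serpina3n inclusive, and 31 further genes lie between Serpina3n and Bdkrb1. Start-site windows from RefSeq (GRCm38.p6, 250 bases before to 50 bases after the start) were found for 6 of the 7 genes, all but Serpina3k. Shown are Serpina1b with a near copy and Serpina3n with a dim relative: Serpina1b (chr12:103738140-103738439, minus strand), its near copy Serpina1d (chr12:103773584-103773883, minus strand), Serpina3n (chr12:104406458-104406757, plus strand) and Serpina3i (chr12:104262872-104263171, plus strand). Serpina1d had no probe set of its own and was measured only together with Serpina1a. Capitals mark matches, on either strand, to TTCNNNGAA (a STAT palindrome), TTNNGNAAT (a C/EBP pattern), AGAACA (a glucocorticoid receptor site in part) and GTTAAT (an HNF1 site in part).
Serpina1b: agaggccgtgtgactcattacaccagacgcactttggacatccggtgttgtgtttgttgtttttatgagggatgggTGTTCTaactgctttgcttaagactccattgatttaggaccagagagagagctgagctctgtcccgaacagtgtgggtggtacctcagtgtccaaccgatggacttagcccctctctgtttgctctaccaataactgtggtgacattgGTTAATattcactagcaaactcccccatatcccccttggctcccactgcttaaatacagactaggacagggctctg
Serpina1d: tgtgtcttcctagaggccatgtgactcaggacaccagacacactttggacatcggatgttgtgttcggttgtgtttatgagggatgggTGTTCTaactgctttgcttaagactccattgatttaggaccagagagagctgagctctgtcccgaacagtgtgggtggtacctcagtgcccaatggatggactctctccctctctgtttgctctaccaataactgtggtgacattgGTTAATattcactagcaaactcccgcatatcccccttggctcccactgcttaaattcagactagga
Serpina3n: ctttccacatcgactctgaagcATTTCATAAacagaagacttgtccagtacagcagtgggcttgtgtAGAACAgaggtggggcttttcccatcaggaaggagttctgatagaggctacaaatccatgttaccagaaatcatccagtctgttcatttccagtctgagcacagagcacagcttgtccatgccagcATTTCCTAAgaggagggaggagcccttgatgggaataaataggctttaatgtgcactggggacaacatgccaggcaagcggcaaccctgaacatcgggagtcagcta
Serpina3i: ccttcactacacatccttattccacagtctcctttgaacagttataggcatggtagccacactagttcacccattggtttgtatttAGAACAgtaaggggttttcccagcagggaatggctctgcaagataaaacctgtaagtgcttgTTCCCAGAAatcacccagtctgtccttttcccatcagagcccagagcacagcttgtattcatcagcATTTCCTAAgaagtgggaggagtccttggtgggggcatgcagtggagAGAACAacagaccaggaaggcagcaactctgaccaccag

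The Serpina1b window was 86.9% identical to that of Serpina1d, 89.3% to Serpina1a, 91.4% to Serpina1c and 69.3% to Serpina1e, counted over all aligned positions, gaps included. The Serpina1e alignment had 104 gap positions, and its AGAACA match lay at -224 from the start site, against -174 in Serpina1b. Serpina3n and Serpina3c were 89.9% identical, Serpina3n and Serpina3i 64.5%. All 5 alpha-1-antitrypsin copies held AGAACA and GTTAAT, which 19.0% and 7.1% of 32851 windows held. TTCNNNGAA, found in 8.3% of windows, matched in Serpina3i and Serpina3g and in none of the 5 copies. Serpina3n held 2 matches to TTNNGNAAT, found in 11.5% of windows, and 1 to AGAACA. No motif overlapped another in the windows shown. The letters describe these windows only; binding was not measured.

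Serpina1b was dim in wild-type fat and bright in knockout and fat rescue with each probe set annotated to it alone. With probe set 1418282_x_at the signal was 23.7, 29.1, 30.5 and 21.1 on the wild-type arrays, 392.0, 721.4, 810.4 and 370.1 on the knockout arrays, and 449.2, 757.3 and 375.8 on the fat rescue arrays. Every wild-type array lay below its array median and every knockout and rescue array above it, with no overlap of either line with wild type. In bulk tissue, more cells that express a gene and more RNA per cell cannot be told apart.

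Wild type averaged 26.1 ± 4.44 (SD, n = 4), knockout 573 ± 225 (n = 4) and fat rescue 527 ± 202 (n = 3). The log2 difference from wild type was 4.39 ± 0.27 (SE) in knockout and 4.29 ± 0.29 in fat rescue. Since the wild-type signal was dim, these are no exact sizes; on the log2(value + 50) scale they were 2.96 and 2.87.

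The other Serpina1b probe set, 1451513_x_at, read 1.4, 4.4, 4.7 and 1.2 in wild type, near the bottom of the scale. It read 489.8, 747.5, 858.0 and 442.7 on the knockout arrays, and 647.3, 978.7 and 416.3 on the rescue arrays. Its groups were separated in the same way as those of the first probe set. The log2 differences from wild type were 7.97 ± 0.43 and 8.05 ± 0.46, again of no exact size, and 3.65 and 3.71 on the log2(value + 50) scale.

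Within each genotype both Serpina1b probe sets put the arrays in the same order. In knockout array 3 was highest and array 4 lowest, and in fat rescue array 2 was highest and array 3 lowest. The signal varied among the samples of a line in both probe sets. Coefficients of variation were 39.3% and 31.6% among knockout arrays and 38.4% and 41.5% among rescue arrays. Over the 11 arrays, deviations from the genotype means correlated at r = 0.76 on the log2 scale; the probe sets share arrays and target.

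**Figure D1:**
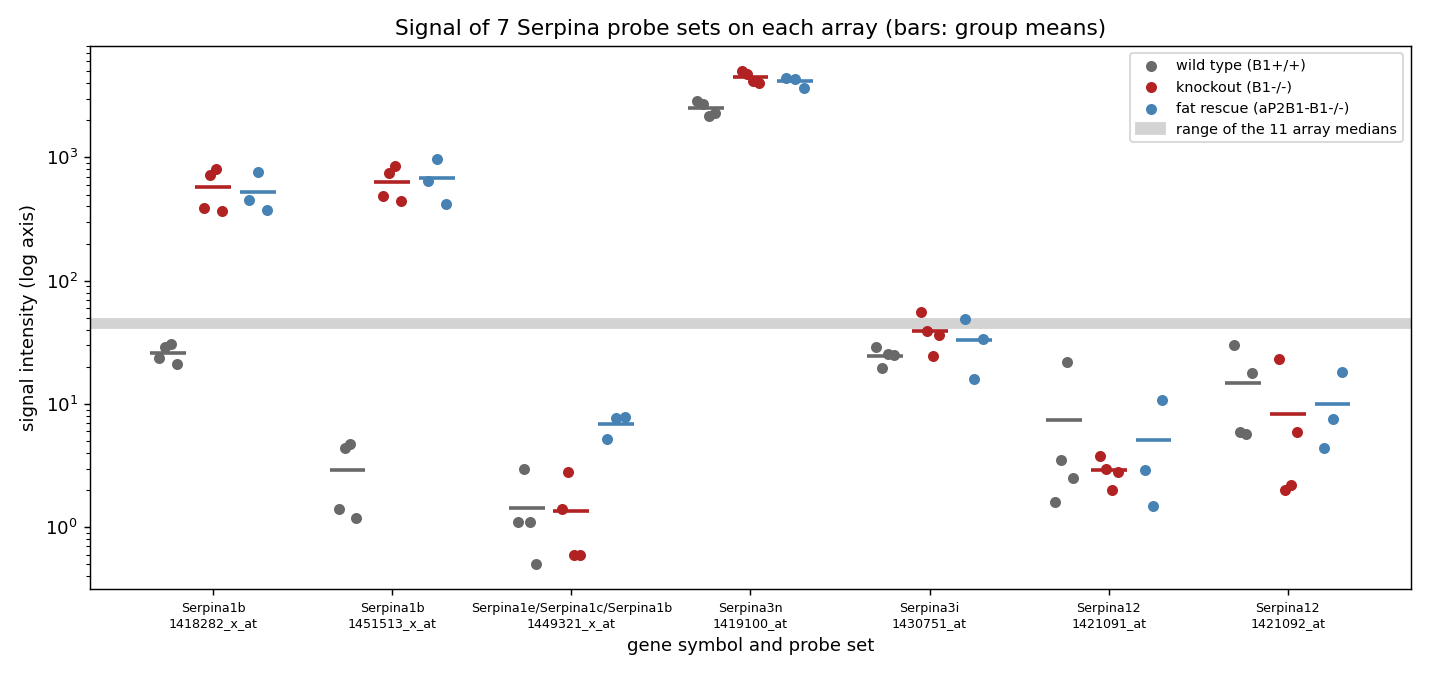
Signal intensity (log axis) of the 7 probe sets on each of 11 arrays, one point per array, with bars at the group means and a grey band over the array medians of 41.3 to 48.8. Both probe sets of Serpina1b alone rise from below the band in wild type to between 370.1 and 978.7 in both lines, and Serpina3n stays far above the band in all groups.

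The probe set that Serpina1b shares with near copies, and the probe sets of near copies alone, did not share this pattern. The rise in both lines was thus not seen with every probe set annotated to Serpina1b. The one shared by Serpina1e, Serpina1c and Serpina1b (1449321_x_at) read 1.1, 3.0, 1.1 and 0.5 on the wild-type arrays, 1.4, 2.8, 0.6 and 0.6 on the knockout arrays, and 5.2, 7.7 and 7.9 on the rescue arrays. It was dim on all 11 arrays, and the fat rescue arrays lay above all others. At this signal the log2 difference from knockout, 2.64 ± 0.85, has no exact size, and it did not pass (limma adjusted p = 1); it was 0.15 on the log2(value + 50) scale.

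The probe set shared by Serpina1d and Serpina1a (1420553_x_at), both also alpha-1-antitrypsin genes, averaged 27.0 ± 9.54 over the wild-type arrays, 8.72 ± 6.22 over the knockout arrays and 8.80 ± 6.89 over the fat rescue arrays. It was dim in every group, and the wild-type arrays lay above all others, the opposite order to Serpina1b. The log2 differences from wild type, -2.16 ± 0.92 and -2.09 ± 0.99, did not pass (limma adjusted p = 0.750 and 0.742). Serpina1c alone (1448680_at) read 19.6 ± 7.97, 27.3 ± 10.8 and 19.9 ± 11.4, with overlapping groups (log2 0.45 and -0.12, adjusted p = 0.902 and 0.983). Probe sets ending in x_at hold probes that can bind several genes, and among such close copies the signal cannot be assigned to 1 gene with certainty.

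Serpina3n was bright in every genotype and higher in both lines. The wild-type arrays read 2869.2, 2710.3, 2178.9 and 2301.8, the knockout arrays 5057.0, 4754.9, 4135.5 and 4024.2, and the fat rescue arrays 4399.8, 4355.6 and 3664.5. The lowest array of either line was above the highest of wild type, while knockout and fat rescue overlapped. Group means were 2515 ± 328 (SD, n = 4), 4493 ± 495 (n = 4) and 4140 ± 412 (n = 3), or 1.79 and 1.65 times wild type.

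The log2 differences from wild type were 0.84 ± 0.11 in knockout and 0.72 ± 0.12 in fat rescue. Centring each array on its median moved the median knockout difference of all probe sets from 0.05 to -0.10, and the Serpina3n differences to 0.69 and 0.62, still on the higher side of wild type. Arrays varied less than for Serpina1b, with coefficients of variation of 13.0%, 11% and 9.96%. The order of arrays also differed from that of Serpina1b: knockout array 1 was the highest for Serpina3n. Deviations from the genotype means correlated at r = 0.09 and 0.01 with the Serpina1b probe sets over the 11 arrays.

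**Figure D2:**
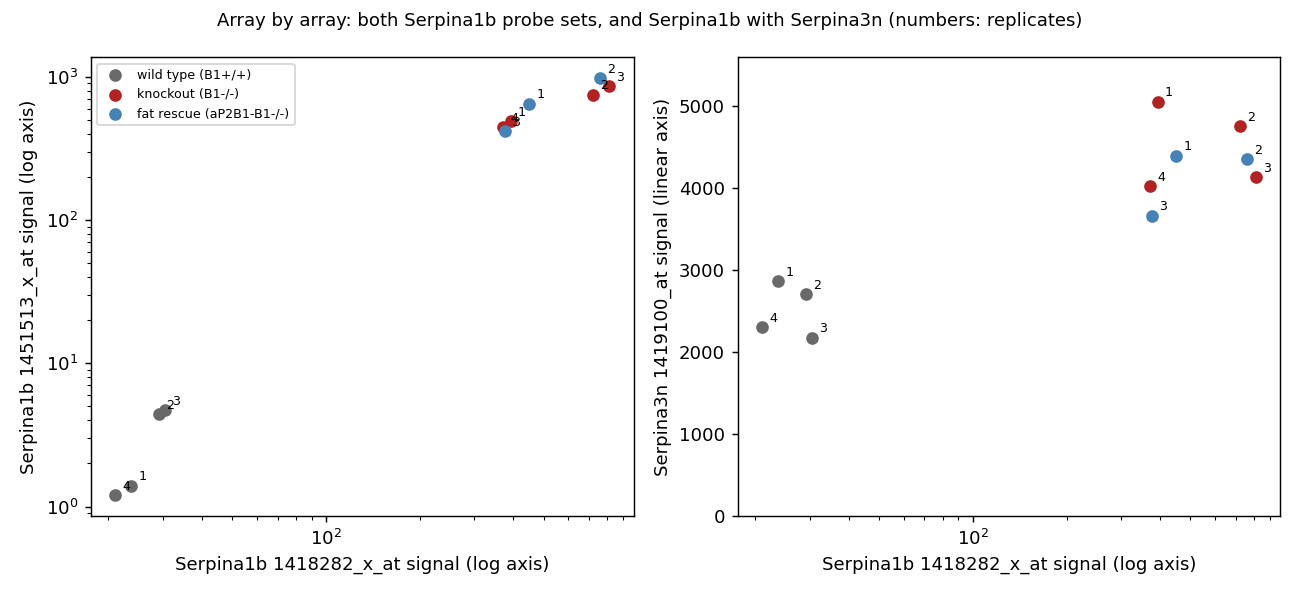
Each point is 1 array, numbered by replicate; the left panel sets both Serpina1b probe sets against each other (log axes) and the right panel Serpina1b (log axis) against Serpina3n (linear axis from 0). Wild-type arrays lie apart from both lines in each panel; within the lines the Serpina1b probe sets rank the arrays alike, while Serpina3n ranks knockout array 1, at 5057.0, highest.

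Serpina3i and Serpina12 were dim. Serpina3i (1430751_at) read 29.2, 19.5, 25.4 and 24.9 on the wild-type arrays, 55.4, 39.4, 24.5 and 36.1 on the knockout arrays, and 48.8, 16.0 and 33.7 on the rescue arrays. Only knockout array 1 and rescue array 1 rose above their array medians, and all 3 groups overlapped. The log2 differences from wild type were 0.61 ± 0.40 and 0.28 ± 0.43.

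Serpina12 was measured by a pair of probe sets. The first, 1421091_at, read 1.6, 3.5, 22.1 and 2.5 on the wild-type arrays, 3.8, 3.0, 2.0 and 2.8 on the knockout arrays, and 2.9, 1.5 and 10.8 on the rescue arrays. The second, 1421092_at, read 30.2, 5.9, 5.7 and 17.9 in the wild-type group, 23.1, 2.0, 2.2 and 5.9 in the knockout group, and 4.4, 7.5 and 18.1 in the rescue group. Both were dim on all 11 arrays, their deviations from the genotype means correlated at r = -0.07, and their groups overlapped. The log2 differences from wild type were -0.57 ± 0.90 and -1.23 ± 0.88 for knockout, and -0.22 ± 0.97 and -0.46 ± 0.95 for fat rescue. Signals this low do not show whether vaspin transcript was present, and differences between the genotypes were not detectable with these arrays.

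The fits of the listed probe sets, read against all probe sets, give the following counts. In knockout against wild type 3 of 7 were past an adjusted p of 0.05 (both of Serpina1b and Serpina3n, all higher), where the background over all probe sets was 0.0178% in either direction and 0.0111% on the higher side. In fat rescue against wild type 2 of 7 were past it, both of Serpina1b and both higher, with a background of 0.0155% in either direction and 0.00888% on the higher side. These contrasts share the wild-type arrays and were those known when the genes were listed, so nothing is read from the counts. All arrays of the line lay above all wild-type arrays in 3 of 7 in knockout and 4 of 7 in fat rescue, where 2.28% and 4.55% of all probe sets did so. Median log2 differences were 0.61 and 0.72 over the 7 and 0.05 and 0.05 over all probe sets. These shares and medians come from the same contrasts and are a description only. The same holds for whether the calls against wild type stayed under other settings.

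The Serpina3n call in knockout was lost, with only Serpina1b left, without wild-type array 3 or 4 or knockout array 1 or 2, after median centring and with eBayes without trend. In fat rescue Serpina3n passed with quantile normalization only, which made 3 of 7. With array 1 of both wild type and fat rescue left out, the counts were again 3 and 2, and the knockout differences were 4.34 and 7.71 for the Serpina1b probe sets and 0.91 for Serpina3n. The fat rescue differences from wild type were then 4.33, 7.77 and 0.74. Median centring also changed the split of all calls in knockout from 5 higher and 3 lower to 4 higher and 10 lower.

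**Figure D3:**
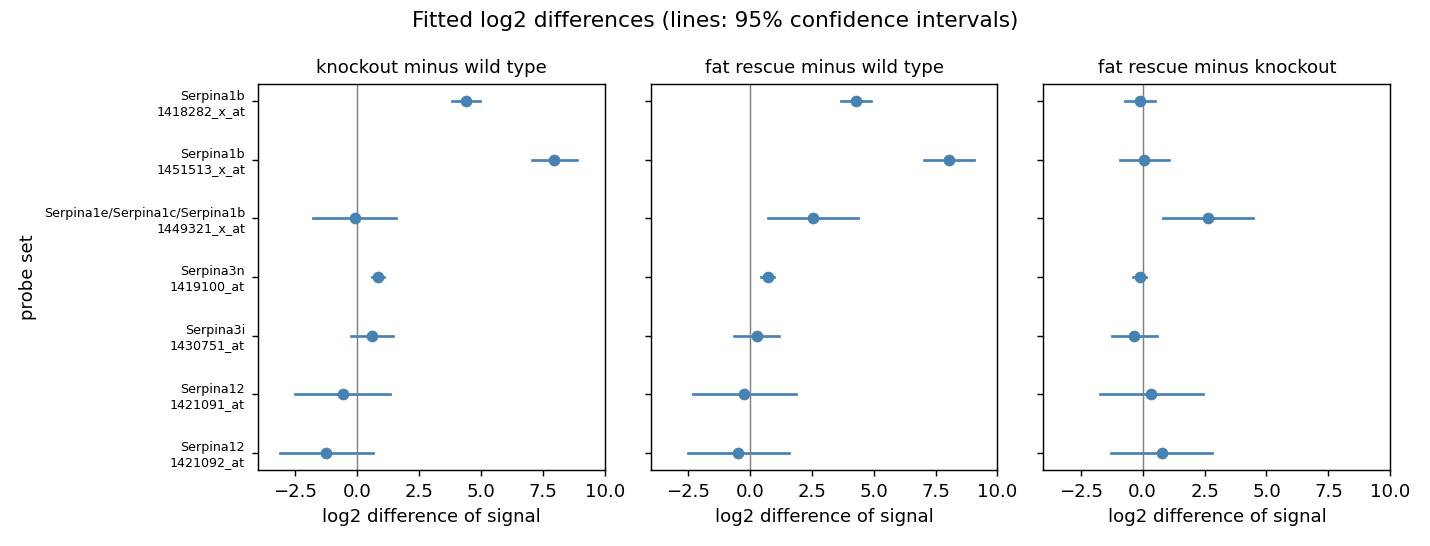
Fitted log2 differences of the 7 probe sets in the 3 comparisons, with lines for the 95% confidence intervals; the vertical line marks no difference. Both probe sets of Serpina1b alone, and Serpina3n, lie to the right of 0 in both comparisons with wild type and around 0 in fat rescue minus knockout.

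Setting fat rescue against knockout addresses whether a receptor expressed in fat goes with a different serpin level. None of the 7 probe sets passed (limma, lowest adjusted p = 1), and the background of calls over all probe sets was 0% in either direction. An unadjusted p under 0.05 was reached by 1 of 7, the shared probe set 1449321_x_at, and by 1860 of all 45037. It was also the 1 of 7 with every fat rescue array above every knockout array, where the background was 2.57%. The fat rescue minus knockout difference of Serpina1b was -0.10 with 1418282_x_at (95% confidence interval -0.72 to 0.52) and 0.07 with 1451513_x_at (-0.92 to 1.06). For Serpina3n it was -0.12 (-0.38 to 0.15). Each of these intervals reaches from lower to higher in fat rescue, so the direction of the difference was not resolved. The intervals give the precision of the estimates and are not limits of detection. For Serpina3i the difference was -0.33 (-1.25 to 0.60), and for Serpina12 it was 0.35 (-1.72 to 2.43) and 0.77 (-1.27 to 2.80).

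The other clade A serpins were nearly all dim. Of 21 such genes 14 were on the array. Serpina1e was there only through the probe set shared with Serpina1b, and the other 13 genes had 14 probe sets, of which 13 had a mean below every array median. Agt, the gene for angiotensinogen, which has the serpin fold and no inhibitory role, was the bright one, with group means of 3248 ± 659, 3290 ± 643 and 3334 ± 446 and overlapping groups. With limma 0 of 14 passed in each comparison. An unadjusted p under 0.05 was reached by 2, 1 and 1 of them in knockout against wild type, fat rescue against wild type and fat rescue against knockout. Over all probe sets these shares were 6.53%, 6.68% and 4.13%, so that 1 or 2 of 14 is no result about this list. Those with the smallest unadjusted p, none of which passed, were the Serpina1d and Serpina1a probe set, Serpina7 (-1.97) and Serpina4-ps1 (0.90) in knockout against wild type. For fat rescue against wild type they were Serpina5 (2.50), the Serpina1d and Serpina1a probe set and Serpina4-ps1 (1.58). For fat rescue against knockout they were Serpina4-ps1 (-1.66 and 1.71) and Serpina5 (1.54). All of these were dim.

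Serpins of other clades gave no call either: 0 of 38 probe sets of 26 genes passed in each comparison with limma, and 2 in each had an unadjusted p under 0.05, close to the 6.53%, 6.68% and 4.13% of all probe sets. Those nearest the threshold were Serpini1 (1.35), Serpinb5 (-2.22) and Serpinf1 (-0.26, the gene for the secreted factor PEDF) in knockout against wild type (smallest adjusted p = 0.712). The fat rescue against wild type contrast gave Serpinb5 (-3.16), Serpinb6b (0.42) and Serpinb12 (1.62; smallest adjusted p = 0.689). The fat rescue against knockout contrast gave Serpinb12 (2.40), Serpinf1 (0.44) and Serpinb1b (-2.39; smallest adjusted p = 1). Of these, Serpinf1 and Serpinb6b, a cytosolic serpin, had means above the array medians. The Serpinb5 values come from different probe sets, 1438856_x_at in knockout and 1441941_x_at in fat rescue. In knockout against wild type the other Serpinb5 probe sets gave -1.24, 0.40 and 0.51, and the other Serpini1 probe sets -0.54 and 0.35. The other Serpinb12 probe set gave -0.07 in fat rescue against wild type and -1.01 in fat rescue against knockout.

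A fixed list of proteases, among them serpin targets, was measured with 43 probe sets of 29 genes, and 0 passed in each comparison with limma. The 3, 4 and 3 of them at an unadjusted p under 0.05 lay near the share of all probe sets, 6.53%, 6.68% and 4.13%. In knockout against wild type the 3 with the smallest p were Ctsg, the neutrophil and mast cell protease cathepsin G (2.19 ± 0.77, adjusted p = 0.706), and the lymphocyte granzymes Gzma (0.61 ± 0.23, adjusted p = 0.710) and Gzmb (0.63 ± 0.26, adjusted p = 0.737). Gzmb, a target of Serpina3n, read 31.8 ± 3.95, 49.2 ± 6.77 and 44.4 ± 7.06 in wild type, knockout and fat rescue, close to the array medians. In fat rescue against wild type they were Ctss, a lysosomal cysteine protease of macrophages (0.96 ± 0.32, adjusted p = 0.660), Gzmm (-1.51) and F10 (2.33). In fat rescue against knockout they were Proc (-1.15), Gzmm (-1.37) and Klk8 (0.74). Ctsg, Gzmm, Proc and the F10 probe set 1418992_at had means below every array median (12.2, 21.3, 27.2 and 8.94). Their differences have no exact size. The other F10 probe sets gave 0.79 and 0.54 in fat rescue against wild type. Klk7, the target of vaspin, read 46.8 ± 40.7, 32.0 ± 20.2 and 15.4 ± 8.87, with overlapping groups. Its highest wild-type array read 107.6, against a wild-type median of 28.1. Its log2 differences from wild type, -0.60 and -1.43, did not pass (limma adjusted p = 0.890 and 0.765). Elane, the elastase that alpha-1-antitrypsin inhibits, differed from wild type by -0.02 and 0.31 on the log2 scale.

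Between Serpina3n and Bdkrb1 in the chromosome order, 16 genes had 25 probe sets, and 0 passed in each comparison with limma. In knockout against wild type, fat rescue against wild type and fat rescue against knockout, 1, 5 and 1 of them had an unadjusted p under 0.05, beside 6.53%, 6.68% and 4.13% of all probe sets. Nearest in knockout against wild type were Clmn (-0.63, adjusted p = 0.441), Syne3 (-0.44) and Glrx5 (-0.20), all lower in knockout. The other Clmn probe sets gave -0.53, -0.46, -0.07, -0.02 and 0.03 in this comparison. The 5 in fat rescue against wild type were all lower. Of these 3 were of Clmn (-0.73, -1.03 and -0.90, smallest adjusted p = 0.312), 1 of Snhg10 (-1.27, adjusted p = 0.565) and 1 of Glrx5 (-0.29, adjusted p = 0.692). The remaining Clmn probe sets gave -0.29, -0.22 and -0.21. The 1 in fat rescue against knockout was the Snhg10 probe set 1447994_at (-1.56, adjusted p = 1). It averaged 68.2 ± 30.5, 79.1 ± 13.2 and 28.2 ± 12.0 in the wild-type, knockout and rescue groups. The brighter Snhg10 probe sets, 1447993_a_at and 1447995_x_at, differed by 0.10 and -0.13 from knockout and by 0.06 and -0.06 from wild type.

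**Figure D4:**
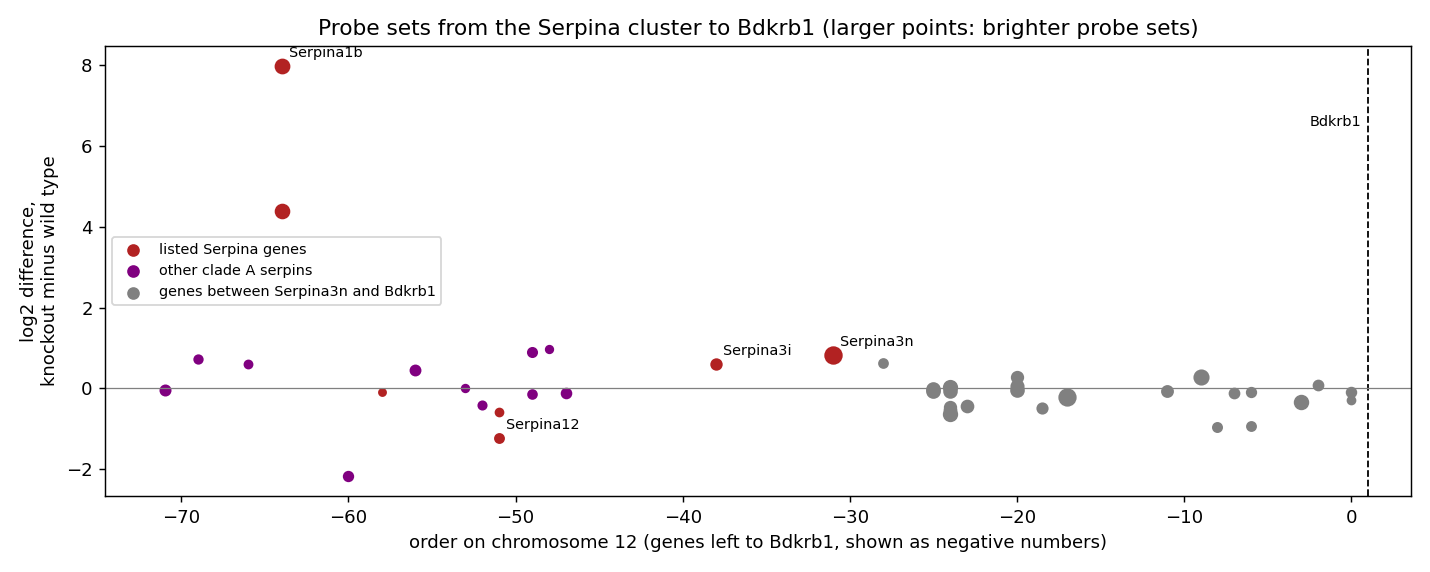
Knockout minus wild-type log2 difference of each probe set from the Serpina cluster to Bdkrb1, placed by the number of genes left to Bdkrb1 (dashed line) and sized by signal. Serpina1b lies highest at 4.39 and 7.97, while probe sets between Serpina3n and Bdkrb1 lie from -0.95 to 0.64; a probe set shared by several genes is drawn at their mean place.

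Among 12706 other genes, those most like Serpina1b (1418282_x_at) in log2 signal over the 11 arrays were Arf6 (Pearson r = 0.920), a small GTPase of membrane traffic, Flt4 (0.913), a VEGF receptor, Tcea2 (0.907), Sdc4 (0.899), the proteoglycan syndecan-4, and Erbin (0.898). Those most like Serpina3n were Zfp84 (0.929), Dtd2 (0.929), Syn2 (0.906), Zeb2 (0.900), a transcriptional repressor, and Nceh1 (0.897), a cholesterol ester hydrolase. All of these genes share the 11 arrays and the genotype groups, and each r includes the difference between genotypes. Deviations from the genotype means correlated with Serpina1b at -0.12 to 0.32 for its 5 genes, and with Serpina3n at 0.27 to 0.82 for its 5. The knockout minus wild-type difference ran from 0.32 (Arf6) to 2.42 (Sdc4) for the genes most like Serpina1b. For those most like Serpina3n it ran from 0.42 (Zfp84) to 2.38 (Nceh1), with 0.77 for Dtd2 and 0.58 for Zeb2. Nceh1 was dim in wild type, with a mean of 14.4.

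Since alpha-1-antitrypsin is a liver product, hepatocyte markers were set beside it. All 14 were measured, and 10 were dim on all 11 arrays: Apoa1, Apoh, Ttr, Fga, Fgb, Fgg, Ahsg, Serpinc1, F2 and Cps1. The 14 markers summed to 344 to 464 in wild type, 272 to 361 in knockout and 227 to 374 in fat rescue, and Alb read 154, 107 and 97.3 on average. No knockout or fat rescue array exceeded the highest wild-type sum. Whether liver cells had a part in the Serpina1b signal was not tested. All 6 epididymis markers measured were dim on every array.

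Macrophage markers had a summed signal of 13041 to 18308 in wild type, 14374 to 26955 in knockout and 18045 to 22274 in fat rescue, and all 10 had a higher mean in knockout and 9 of 10 in fat rescue. Knockout array 1 had the highest sum and the highest Serpina3n signal, 5057.0. Rescue array 3 had the highest sum of its group with the lowest Serpina3n signal, 3664.5, and wild-type array 1 the lowest sum of all with the highest wild-type Serpina3n signal, 2869.2. In T cell markers, 6 of 8 measured, the sums were 144 to 251, 228 to 322 and 236 to 287. In B cell markers, 3 of 4 measured, they were 116 to 248, 142 to 472 and 203 to 284. The part of these cells in the Serpina3n and Serpina1b signal was not tested. Neutrophil markers, 7 of 8 measured, summed to 320 to 715 on 10 arrays and to 3283 on rescue array 1. On that array Serpina3n (4399.8) was the highest of the rescue group, and Serpina1b (449.2) lay between the other rescue arrays. The part of neutrophils in these signals was not tested either. Pancreas markers, 5 of 7 measured, summed to 566 to 971, 443 to 595 and 484 to 939. Endothelial markers (6 of 6) summed to 3427 to 4058, 3008 to 3903 and 3491 to 4867, and mesothelial markers (6 of 6) to 2380 to 3792, 3192 to 3935 and 3870 to 4595.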

How the data were processed

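RNA of 11 fat samples was measured on 1 one-colour array each. The values used are the signal intensities that the authors deposited, on a linear scale and without detection calls; the submitters' processing notes name GCOS 1.3 and MAS5. Control probe sets (64 of 45101) were left out, 1 value of 0 was set to 0.1, and log2 was taken with no filter on dim probe sets.

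All 45037 probe sets and 11 arrays were fitted in 1 model with limma 3.58.1 (eBayes with trend, statmod 1.5.0) in R 4.3.3, with genotype as the only factor, two-sided, and Benjamini-Hochberg adjustment over all probe sets. The fit was tested on simulated data. Among the probe sets, 34945 had 1 gene symbol, 932 several and 9160 none. Motifs were searched on both strands of RefSeq start-site windows; GTTAAT was added after the sequences had been seen.

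The genes, lists and tests were chosen with earlier results of these data known. Named are all listed probe sets, the 3 of each list with the smallest unadjusted p per comparison (for the genes between Serpina3n and Bdkrb1, in knockout against wild type), and the 5 genes most like Serpina1b and Serpina3n. The Serpina1c probe set, Snhg10 and the fat rescue values of Clmn and Glrx5 were named after their values were seen. So were the further Clmn, F10, Serpinb5, Serpini1 and Serpinb12 probe sets, Klk7, Elane and Agt. The differences given for genes most like Serpina1b and Serpina3n were also named after their values were seen.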

Additional observations from a re-analysis of the deposited data

How the results depend on the processing

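Of 22 alternatives, 21 were planned and 1, leaving out both wild-type array 1 and rescue array 1, was chosen after seeing the data and gave 3, 2 and 0 calls. Past the threshold were 2 or 3 of the 7 probe sets in knockout against wild type, 1 to 3 in fat rescue against wild type and 0 in fat rescue against knockout; the 1 came with a single probe set per gene, which removes the other Serpina1b probe set. Over all probe sets the counts ranged from 4 to 19, 2 to 10 and 0 to 1. No probe set of the other clade A serpins or the listed proteases passed under any alternative run. The fat rescue minus knockout differences changed sign without passing: leaving out each array gave -0.39 to 0.11 and -0.23 to 0.38 for the Serpina1b probe sets 1418282_x_at and 1451513_x_at, -0.44 to 0.99 for Serpina12 1421091_at and -0.68 to 0.12 for Serpina3i. The single reversals were 0.04, 0.10 and 0.11 for 1418282_x_at without knockout array 2 or 3 or rescue array 3, and -0.04, -0.08 and -0.23 for 1451513_x_at without knockout array 1 or 4 or rescue array 2. With the replicate number as a block, 1451513_x_at read -0.18, the counts of the 7 stayed at 3, 2 and 0, and those of all probe sets were 10, 3 and 0 in place of 8, 7 and 0. Same-numbered arrays correlated at -0.0885 to 0.2227 in their deviations, so the numbers were not taken as a pairing. Signals at or below the array medians limit Serpina12, Serpina3i and the shared probe sets.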
